A study of Mus musculus with 6 samples.

Results

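Stem cell identity in blood is held by a small set of transcription factors, and 9 of them were examined here in CD34-/LSK cells from WT and CD74-/- mice. The 9 are Mecom, Hlf, Mllt3, Gata2, Tal1, Lmo2, Erg, Mycn and Etv6. They were chosen by gene symbol from 19846 genes of the deposited table, and each symbol stood in 1 row. The rule uses no measured value, but the genes were proposed with earlier results of these data known. Both groups were untreated C57BL/6 mice of 6 to 8 weeks. WT mice carried a normal Cd74 gene, and CD74-/- mice lacked CD74, the invariant chain that also acts as the receptor of the cytokine MIF, in every cell of the body and not only in stem cells. LSK cells lack lineage markers and carry Sca-1 and c-Kit, and the CD34- fraction of them is the one enriched for long-term haematopoietic stem cells (HSCs). From each genotype there were 3 libraries of 1000 sorted cells. The labels give 3 mice per genotype, and each library was read as 1 mouse (n = 3 throughout). If cells of the mice had been pooled, the p-values would measure only the spread between libraries.

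The factors act together on enhancers of stem cell genes. TAL1, a basic helix-loop-helix protein, binds DNA with an E protein, and LMO2 and LDB1 bridge it to GATA2 on paired E-box and GATA motifs. ERG, FLI1, RUNX1 and LYL1 occupy many of the same elements, and together with TAL1, LMO2 and GATA2 they are known as the heptad. MECOM (EVI1), a zinc finger protein, and HLF, a PAR bZIP protein, are among the most stem-cell-restricted regulators of blood and are needed for the self-renewal and quiescence of HSCs. MLLT3 (AF9), a chromatin reader of the super elongation and DOT1L complexes, maintains HSCs and is a common fusion partner in leukaemia. MYCN is the MYC family member of the most immature blood cells, where it acts beside MYC, and ETV6, an ETS family repressor, is required for HSCs to persist in the adult bone marrow.

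RefSeq windows of 250 bases upstream of the start sites (GRCm38.p6) were found for 8 of the 9 genes, with 14 start sites in all. Lmo2 had no entry. They were searched on both strands for the GATA motif GATAA, the helix-loop-helix E-box CAGNTG, the ETS core GGAAG and the MYC-type E-box CACGTG. The windows of 3 genes are printed 5′ to 3′ on the strand of the gene, with each match in capitals. Mecom and Hlf are shown as the most stem-cell-restricted members and Mycn as the member with the largest log2 fold change in size. Mecom is known to be read from an upstream start, which gives the longer MDS1-EVI1 protein, and from a downstream start, which gives EVI1. Its windows at chr3:30509760-30510009 (first line) and chr3:30013205-30013454 (second line) lie on the minus strand, as do those of Hlf at chr11:90390918-90391167 and of Mycn at chr12:12941837-12942086.
Mecom upstream start: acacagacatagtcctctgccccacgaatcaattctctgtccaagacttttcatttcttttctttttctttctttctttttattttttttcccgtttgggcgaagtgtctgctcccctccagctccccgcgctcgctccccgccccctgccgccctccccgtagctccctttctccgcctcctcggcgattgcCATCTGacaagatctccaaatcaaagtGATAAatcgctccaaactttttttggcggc
Mecom downstream start: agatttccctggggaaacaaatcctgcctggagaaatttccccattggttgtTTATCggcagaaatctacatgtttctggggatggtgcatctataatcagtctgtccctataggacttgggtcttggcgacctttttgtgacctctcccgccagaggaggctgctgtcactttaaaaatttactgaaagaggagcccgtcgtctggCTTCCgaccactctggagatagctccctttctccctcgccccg
Hlf: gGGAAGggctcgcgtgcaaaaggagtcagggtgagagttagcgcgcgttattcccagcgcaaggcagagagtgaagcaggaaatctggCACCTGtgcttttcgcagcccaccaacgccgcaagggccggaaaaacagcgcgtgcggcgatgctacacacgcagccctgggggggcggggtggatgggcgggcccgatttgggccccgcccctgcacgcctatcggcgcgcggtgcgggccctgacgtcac
Mycn: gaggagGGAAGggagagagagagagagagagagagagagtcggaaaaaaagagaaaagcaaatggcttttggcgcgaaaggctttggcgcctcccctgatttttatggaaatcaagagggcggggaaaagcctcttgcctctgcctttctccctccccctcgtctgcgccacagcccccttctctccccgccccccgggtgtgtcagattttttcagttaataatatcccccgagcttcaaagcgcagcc

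Both Mecom windows hold 1 GATA match, 30 bases before the upstream start and 198 bases before the downstream start. The upstream window also holds the E-box CATCTG, 57 bases before the start, and the downstream window the ETS core, 43 bases before it. Hlf has 1 E-box and 1 ETS core, and Mycn 1 ETS core. Over the 14 start sites of the 8 genes, 4 windows held GATAA, 5 the E-box, 6 the ETS core and 0 the MYC-type E-box. The same searches matched 22.6%, 44.8%, 64.1% and 6.0% of 32851 mouse promoter windows of this length. No match overlapped another motif. These are matches of letters, and binding was not measured.

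The 6 libraries held 14390534 to 16198678 reads in genes, and 854 to 25769 reads stood behind each value of the 9 factors. The reads are copies amplified from 1000 cells and carry no molecular identifiers, so they are not independent molecules. The deposited value is a normalized count, the reads of a gene divided by the size factor of the library. Cd74 checked the labels, with 2459 to 3287 normalized counts in WT, against 46.0 to 72.8 in CD74-/-. The stem cell markers Procr, Slamf1, Fgd5, Hoxb5, Ctnnal1, Esam, Ly6a and Kit were found in every library, with summed levels of 24385 to 28407 normalized counts in WT, against 22642 to 30620.1 in CD74-/-. Ly6a and Kit, which make up most of this sum, encode Sca-1 and c-Kit, on which the cells were sorted. The sum is therefore no independent check of stem cell content. Cd34, whose protein is the negative side of the gate, was found at 5240.5 to 11830.4 normalized counts. Markers of neutrophils took 6.26% of all normalized counts in WT replicate 1, against 1.09% and 1.59% in the other WT libraries and 0.196% to 0.914% in CD74-/-. Reads come from a pool of cells, in which fewer cells of a type and less RNA per cell cannot be told apart.

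None of the 9 factors passed the test between WT and CD74-/- HSCs, while all 9 had a lower mean log2 level in CD74-/- HSCs. The log2 fold changes ran from -0.69 (Mycn) to -0.082 (Lmo2), with a median of -0.46. By ratio of the means, CD74-/- HSCs held 0.662 (Mycn) to 0.979 (Erg) of the WT level. The test was that of limma on log2(normalized count + 1), with Benjamini-Hochberg adjusted p values over 14892 genes whose mean normalized count reached 10, all 9 factors among them. At an adjusted p under 0.05 limma called 0 of the 9 factors, where 0.0873% of all tested genes were called, and 0 of the 9 had an unadjusted p under 0.05, where 7.74% of all tested genes did. A fit of DESeq2 to recovered reads also called 0 of the 9, against 0.756% of the genes it tested, as did edgeR and limma-voom. A negative sign was found for 52.3% of all tested genes, with a median log2 fold change of -0.030, and for 36.1% of the 3411 genes whose mean normalized count reached 1000, with a median of 0.11. The 9 genes share the same 6 libraries and are not independent of each other.

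**Figure D1:**
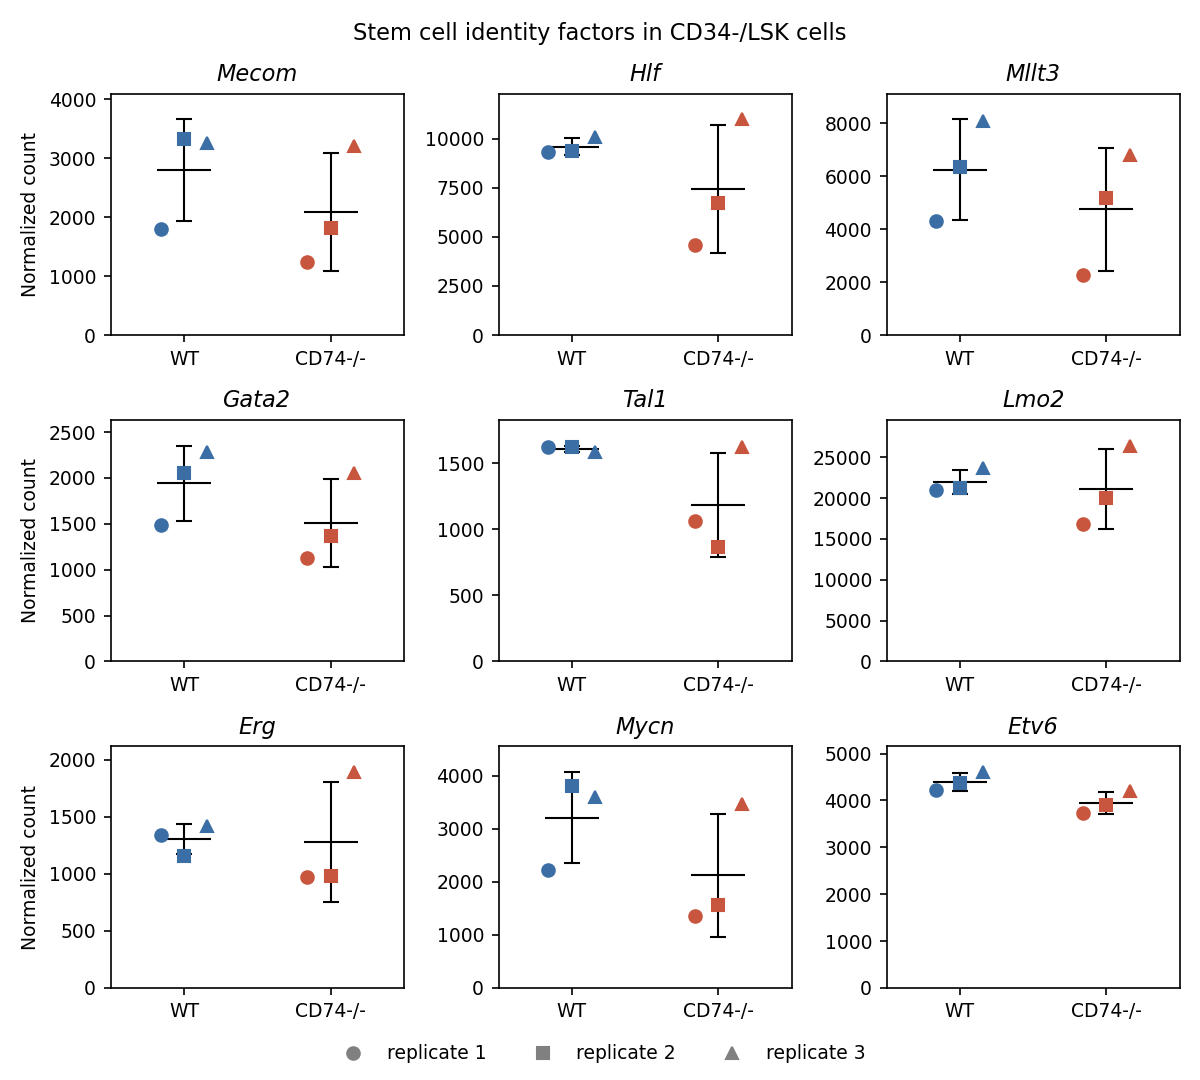
Normalized count (y axis, from 0, a separate scale for each gene) of the 9 factors in the 3 WT (blue) and 3 CD74-/- (red) libraries, with a symbol for each replicate number. Horizontal lines are means and bars are SD (n = 3). The values of CD74-/- replicate 3 lie above those of the other CD74-/- libraries in all 9 genes, and Etv6 is the 1 gene in which the groups do not overlap.

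Of the factors of self-renewal, Mecom, Hlf and Mllt3 each had a CD74-/- mean near 0.75 of the WT mean, and in each the genotypes overlapped. Mecom (ENSMUSG00000027684; chromosome 3, 29951296 to 30548008 on GRCm38, minus strand) stood at 1797, 3324 and 3258 normalized counts in WT, against 1242, 1815 and 3197 in CD74-/-. WT replicate 1 lay below CD74-/- replicates 2 and 3, and CD74-/- replicate 3 lay close to the upper WT libraries. The means were 2793 ± 863 and 2085 ± 1005 (SD, n = 3 each), a ratio of 0.746. Its log2 fold change of -0.48 (standard error 0.364, 95% confidence interval -1.29 to 0.33) did not pass (limma, adjusted p = 0.75), and the two-sided exact permutation test gave p = 0.3, where 3 against 3 cannot go below 0.1. The count covers 17 transcripts of the gene, so the MDS1-EVI1 and EVI1 forms were not told apart. An antisense gene, Mecomos, shares 81 bases of exon with it and had 31.3 to 116.8 normalized counts, and the kit does not keep the strand.

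Hlf (ENSMUSG00000003949; chromosome 11, 90336536 to 90390895, minus strand) was steady in WT HSCs and wide in CD74-/- HSCs. Its normalized counts were 9308, 9393 and 10076 in WT, against 4563, 6733 and 10978 in CD74-/-. Thus 2 CD74-/- libraries lay below all WT libraries and the remaining one above them all. The means were 9592 ± 421 and 7425 ± 3263 (SD, n = 3 each), and the log2 fold change of -0.46 (standard error 0.286, interval -1.10 to 0.17) did not pass (limma, adjusted p = 0.711; exact permutation p = 0.4).

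Mllt3 (ENSMUSG00000028496; chromosome 4, 87769925 to 88033364, minus strand) varied most over the 6 libraries, with a highest value 3.58 times the lowest. It had 4307, 6370.0 and 8095 normalized counts in WT, against 2259, 5166 and 6816 in CD74-/-. The lowest value was that of CD74-/- replicate 1 and the highest that of WT replicate 3, and the other libraries interleaved. The means were 6257 ± 1897 and 4747 ± 2307 (SD, n = 3 each), with a log2 fold change of -0.49 (standard error 0.385, interval -1.35 to 0.36) that did not pass (limma, adjusted p = 0.757; exact permutation p = 0.6).

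Among the heptad factors, Gata2 and Tal1 had ratios of 0.78 and 0.736, while Lmo2 and Erg stood near the WT level. Gata2 (ENSMUSG00000015053; chromosome 6, 88193891 to 88207032, plus strand), a zinc finger factor whose dose limits HSC number, had 1488, 2052 and 2283 normalized counts in WT, against 1124, 1367 and 2049 in CD74-/-. CD74-/- replicates 1 and 2 lay below the lowest WT library, and CD74-/- replicate 3 lay within the WT range. The means were 1941 ± 409 and 1513 ± 479.8 (SD, n = 3 each), and the log2 fold change of -0.38 (standard error 0.284, interval -1.01 to 0.25) did not pass (limma, adjusted p = 0.745; exact permutation p = 0.2).

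Tal1 (ENSMUSG00000028717; chromosome 4, 115056426 to 115071755, plus strand) was the steadiest factor in WT, with 1626, 1621 and 1584 normalized counts. The CD74-/- libraries had 1064, 866 and 1626 normalized counts, the first 2 below every WT library and the third level with the highest of them. The means were 1610.05 ± 22.9 and 1185 ± 394 (SD, n = 3 each). Its log2 fold change of -0.49 (standard error 0.27, interval -1.09 to 0.11) did not pass (limma, adjusted p = 0.688; exact permutation p = 0.4).

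Lmo2 (ENSMUSG00000032698; chromosome 2, 103957986 to 103981878, plus strand), the LIM-domain bridge of the complex, had the most reads of the 9. It had 21046, 21258 and 23654 normalized counts in WT, against 16880.2, 20021 and 26406 in CD74-/-, so that the CD74-/- libraries lay on both sides of the WT libraries. The means were 21986 ± 1448 and 21102 ± 4854 (SD, n = 3 each), a ratio of 0.96. The log2 fold change was -0.082 (standard error 0.203, interval -0.53 to 0.37; limma, adjusted p = 0.937; exact permutation p = 0.7). Without CD74-/- replicate 1 this value turned to 0.067.

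Erg (ENSMUSG00000040732; chromosome 16, 95359169 to 95586593, minus strand), an ETS factor of the heptad, also had CD74-/- libraries on both sides of the WT libraries. It had 1341, 1159 and 1419 normalized counts in WT, against 968.5, 977 and 1891 in CD74-/-, with the third CD74-/- library the highest of all 6. The means were 1306 ± 133 and 1279 ± 529.8 (SD, n = 3 each), and the log2 fold change of -0.10 (standard error 0.298, interval -0.76 to 0.56) did not pass (limma, adjusted p = 0.949; exact permutation p = 0.8). It turned to 0.062 without CD74-/- replicate 1 and to 0.056 without CD74-/- replicate 2. The interval for Erg reaches from 0.589 to 1.48 of the WT level, so a moderate change in either direction was not detectable with 3 libraries per genotype.

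Mycn had the largest log2 fold change in size of the 9, and Etv6 the smallest spread over the 6 libraries. Mycn (ENSMUSG00000037169; chromosome 12, 12936093 to 12941914, minus strand) had 2229, 3802 and 3595 normalized counts in WT, against 1352, 1560.4 and 3457 in CD74-/-. CD74-/- replicates 1 and 2 lay below every WT library, while CD74-/- replicate 3 lay near the upper ones. The means were 3209 ± 855 and 2123 ± 1160.1 (SD, n = 3 each), a ratio of 0.662. The log2 fold change of -0.69 (standard error 0.36, interval -1.49 to 0.11) did not pass (limma, adjusted p = 0.682; exact permutation p = 0.2). It was -1.10 without CD74-/- replicate 3, with an adjusted p of 0.103 from limma, the lowest that any factor reached under the alternatives tried.

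Etv6 (ENSMUSG00000030199; chromosome 6, 134035700 to 134270158, plus strand) was the only factor whose genotypes did not overlap. It had 4224, 4370.3 and 4603 normalized counts in WT, against 3735, 3901 and 4205 in CD74-/-. The highest CD74-/- library lay just under the lowest WT library. The means were 4399 ± 191 and 3947 ± 238 (SD, n = 3 each), a ratio of 0.897, and the log2 fold change of -0.16 (standard error 0.184, interval -0.57 to 0.25) did not pass (limma, adjusted p = 0.844). The exact permutation test gave p = 0.1, the smallest that 3 against 3 allow. Among all tested genes, 7.47% had every CD74-/- library below every WT library and 5.35% every CD74-/- library above, so that 1 of 9 factors below and 0 of 9 above is near that background. The predicted gene Gm17089 runs antisense over 135 bases of Etv6 exon, with 0 to 30.4 normalized counts.

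**Figure D2:**
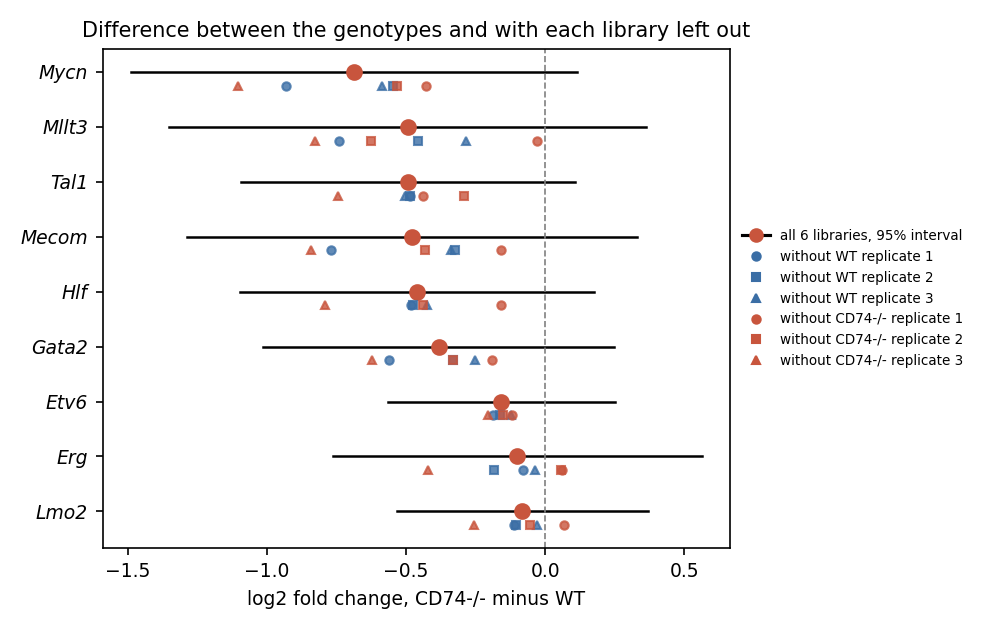
Log2 fold change of each factor (x axis, CD74-/- minus WT), with the limma 95% confidence interval (line) and, below it, the value with each library left out (small symbols). All 9 intervals include 0. Without CD74-/- replicate 3 the values lie furthest below 0 in all 9 genes, and without CD74-/- replicate 1 they lie closest to or above 0 in 8 of the 9.

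The lower means rested mainly on CD74-/- replicates 1 and 2. CD74-/- replicate 3 lay above every WT library in Hlf, Lmo2 and Erg and level with the highest in Tal1. It lay below every WT library in Etv6 and within the WT range in Mecom, Mllt3, Gata2 and Mycn. Set against the WT mean of each gene, CD74-/- replicate 1 held 36.1% (Mllt3) to 84.9% (Etv6) and CD74-/- replicate 2 held 48.6% (Mycn) to 91.1% (Lmo2). CD74-/- replicate 3 held 95.6% (Etv6) to 145% (Erg) and was above the WT mean in 8 of the 9 genes. It was the highest of the CD74-/- libraries in 9 of 9 factors, as in 40.3% of all tested genes. CD74-/- replicate 1 was the lowest of them in 8 of 9 factors, as in 29.5% of all tested genes. Tal1 was the exception, with its lowest value in CD74-/- replicate 2. In 7 of the 9 factors CD74-/- replicates 1 and 2 both lay below all WT libraries, a pattern found in 18.7% of all tested genes, and Mecom and Mllt3 missed it because WT replicate 1 lay between them.

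Summed over the 9 factors, WT libraries reached 47364, 53349 and 58567 normalized counts, against 33188, 42407 and 60625 in CD74-/-. The first 2 CD74-/- libraries were below all WT libraries and the third above them all. Lmo2 and Hlf make up most of this sum. The SD of the log2 level was larger in CD74-/- than in WT HSCs for 9 of 9 factors, as for 62.1% of all tested genes, with a median over the factors of 0.553 in CD74-/- and 0.15 in WT. Over all tested genes these medians were 0.539 and 0.405. Over the 3411 genes whose mean normalized count reached 1000, as it did for all 9 factors, they were 0.334 and 0.216. Of those genes, 69.8% had the larger SD in CD74-/-. Without CD74-/- replicate 3 the median log2 fold change of the factors was -0.75, and without CD74-/- replicate 1 it was -0.16, with 7 of 9 negative. It was -0.49 without WT replicate 1, the library with the most neutrophil RNA. Single factors moved more than this median. Without that library Mycn went from -0.69 to -0.93, Mecom from -0.48 to -0.77, Mllt3 from -0.49 to -0.74 and Gata2 from -0.38 to -0.56. WT replicate 1 was the lowest WT library in each of these genes. Hlf, Lmo2 and Etv6 moved little in the same direction, and Tal1 and Erg little in the other. In each of these settings limma called 0 of the 9.

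In a list of 4 progenitor markers, Cd34 and Cd48 stood highest in CD74-/- replicates 1 and 2. Of the 4, only CD34 was used in the gate. Cd34, the antigen of the gate, had 6611, 6834 and 5240.5 normalized counts in WT, against 11830.4, 9672 and 7097 in CD74-/-. Cd48, a surface protein of multipotent progenitors that long-term HSCs lack, had 4339, 5091 and 3658 in WT and 13490 in CD74-/- replicate 1, 8072 in replicate 2 and 4461 in replicate 3. Both were therefore highest in the CD74-/- libraries with the least RNA of the identity factors. Flt3, the receptor of lymphoid-primed progenitors, had 137%, 117% and 146% of its WT mean in the CD74-/- libraries, without that order. Il7r, the lymphoid member of the list, had 262 to 478 normalized counts in WT, against 119 to 258 in CD74-/-. Summed over these 4 markers, WT libraries reached 14281, 15018 and 11257 normalized counts, against 28981, 21007 and 15544 in CD74-/-, which do not overlap. Cd34 and Cd48 make up most of this sum. Taken singly, Cd34 and Flt3 lay above WT without overlap, Il7r lay below WT without overlap, and Cd48 overlapped. Among all tested genes, 5.35% lay above and 7.47% below without overlap. Limma called 0 of the 4 (adjusted p = 0.588 for Cd34 and 0.607 for Cd48), and their part in the lower levels of the factors was not tested. CD48 belongs to the SLAM family, and the authors state that CD74 controls how SLAM receptors are expressed. Whether the Cd48 level followed from this or from the kind of cells was not tested. The summed stem cell markers were at 22642, 24672 and 30620.1 normalized counts in the CD74-/- libraries, the first below, the second within and the third above the WT range. Ly6a and Kit make up most of this sum, and 6 of the 8 markers had a negative log2 fold change. Ly6a (0.21) and Slamf1 (0.11) were positive. Procr (-0.19), Kit (-0.19), Fgd5 (-0.23) and Ctnnal1 (-0.28) were negative but smaller in size than Esam and Hoxb5. Esam, a junction protein of HSCs, had 954, 941 and 839 normalized counts in WT, against 293, 537 and 449 in CD74-/-, without overlap (-1.14; limma, adjusted p = 0.467; DESeq2, adjusted p = 0.0691). Values below WT without overlap were found for 7.47% of all tested genes. Hoxb5 had a log2 fold change of -1.22 with overlap (limma, adjusted p = 0.668). Kit, the receptor of stem cell factor, was at 67.8%, 70.5% and 140% of its WT mean in these libraries.

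**Figure D3:**
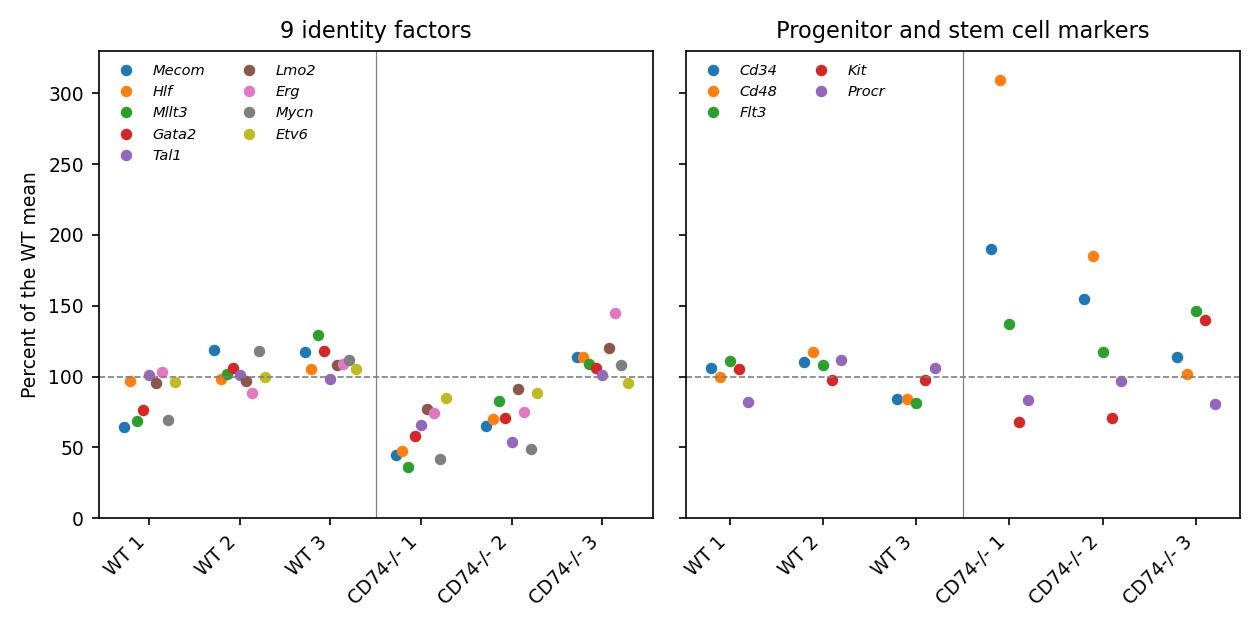
Level in each library as a percent of the WT mean of that gene (y axis) for the 9 factors (left) and for 5 RNAs of progenitor and stem cell surface proteins (right), 1 point per gene and library. All 9 factors lie below 100% in CD74-/- replicates 1 and 2 and 8 of 9 lie above it in CD74-/- replicate 3, while Cd48 stands at 309%, 185% and 102% and Cd34 at 190%, 155% and 114% in these libraries.

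Per length of exon, Lmo2 RNA was by far the most abundant of the 9 and Mecom RNA the least. Levels of different genes were compared as RPKM, the reads per kilobase of merged exon scaled to the reads in genes of the library, with no test. By RPKM Lmo2 had a median level of 652 over the 6 libraries (range 492 to 827) and Hlf a median of 93.5 (43.1 to 111). Mycn (57.3), Etv6 (46.5) and Mllt3 (31.8) followed. Erg (24), Gata2 (21.7) and Tal1 (24.4), in the order of their means, formed a group with ranges that overlapped throughout, and Mecom had a median of 13.4 (6.31 to 18.6). Lmo2 was the only gene whose range lay clear of its neighbour in the order. Lmo2, Hlf and Mecom held the first, second and last place in every library. With the longest transcript in place of all exons, Lmo2, Hlf and Mycn kept their places, and Mecom, which has the longest merged exons of the 9, moved from place 9 to place 7 and Tal1 from 8 to 9 in the order by mean RPKM.

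**Figure D4:**
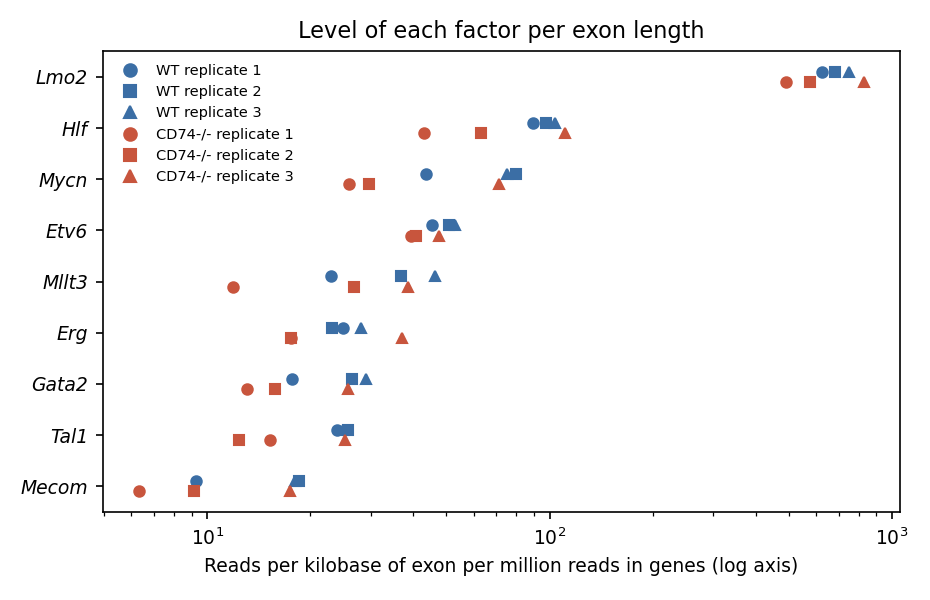
RPKM, reads per kilobase of merged exon scaled to the reads in genes (x axis, log scale), for each factor in each of the 3 WT (blue) and 3 CD74-/- (red) libraries, ordered by the mean of the 6. Lmo2 stands apart at 492 to 827, and from Hlf down each gene overlaps the next.

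Genes that work with the factors were described in 5 lists of 62 genes. Limma called 0 of the 59 tested genes of these lists in either direction, as did DESeq2, edgeR and limma-voom, and at an unadjusted p under 0.05 limma found 2 higher and 3 lower, where 3.14% of all tested genes were higher and 4.6% lower at this p. The partners of TAL1, LMO2 and GATA2 came closest to the 9 factors by median, with 11 of 13 negative, a median log2 fold change of -0.24 and 4 of 13 with every CD74-/- library below every WT library, against 7.47% of all tested genes. Zfpm1 (FOG1), the cofactor of GATA proteins, had 549, 378 and 589 normalized counts in WT, against 233, 171 and 332 in CD74-/-, a log2 fold change of -1.07 (limma, adjusted p = 0.563). Tcf3 (E2A), an E protein that pairs with TAL1, had 1392, 1007 and 1030.3 in WT and 441, 575 and 969 in CD74-/- (-0.85, adjusted p = 0.583). The more abundant E protein genes Tcf4 (-0.23) and Tcf12 (0.30) overlapped between the genotypes. The bridging protein gene Ldb1 (-0.66) and the heptad gene Lyl1 (-0.60) were the other members without overlap. In the opposite direction, Ssbp2, whose protein protects LDB1 from degradation, had 2026, 4115 and 4670.0 in WT and 4436, 6486 and 6595 in CD74-/-. Its log2 fold change was 0.76 (limma, adjusted p = 0.611), and the genotypes overlapped. Cbfa2t3 (ETO2), the corepressor of the complex and with Ssbp2 one of the 2 most abundant members, had a log2 fold change of -0.19. The remaining heptad genes Fli1 (-0.24) and Runx1 (-0.20) had the split of the factors, with 3885 and 4259 normalized counts in CD74-/- replicate 3 against 2035 to 2292 in replicates 1 and 2.

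In the MYC/MAX network, Myc had the opposite sign to Mycn. Myc had 3669, 3749 and 3668 normalized counts in WT, against 5206, 3836 and 5706 in CD74-/-, with every CD74-/- library above every WT library. Its log2 fold change of 0.39 did not pass (limma, adjusted p = 0.687; exact permutation p = 0.1), so neither gene passed the test. Of the 10 tested genes of the network, 1 lay above WT without overlap and 0 below, against 5.35% and 7.47% of all tested genes. Of the 3411 genes with a mean of at least 1000, 288 lay above without overlap. Of 10 tested genes of the network 6 were negative, with a median of -0.11, and Mga, which opposes MYC on E-boxes as a partner of MAX, had 0.42. Mycl and Mlxipl were under the minimum mean and were not tested.

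Among the 16 tested partners of MLLT3 in elongation and DOT1L complexes, 13 were negative, with a median of -0.17. Kmt2a (MLL1), the histone methyltransferase to which MLLT3 is fused in leukaemia, had a log2 fold change of -0.037, and Aff3, a scaffold protein gene of the super elongation complex family, had 0.029. Mllt10 (AF10), a partner of DOT1L, had 1434, 1346 and 1404 normalized counts in WT, against 1134, 1024 and 1324 in CD74-/-, without overlap (-0.27, adjusted p = 0.766 from limma). Ccnt2, a cyclin of P-TEFb, was without overlap in the other direction (0.29, adjusted p = 0.739 from limma). Thus 1 of the 16 lay below and 1 above without overlap, against 7.47% and 5.35% of all tested genes. Ell3 was not among the genes of the table used here.

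Relatives and corepressors of MECOM, HLF, ERG and ETV6 had a median log2 fold change of -0.10, with 10 of 15 negative. Nfil3 (E4BP4), a bZIP repressor that binds the same DNA motif as HLF, had 37.5, 16.1 and 15.1 normalized counts in WT, against 54.8, 105 and 52.3 in CD74-/- (1.63, adjusted p = 0.642 from limma), every CD74-/- value above the WT values, from low counts. The ETS factor gene Elf1 was also without overlap and higher in CD74-/- (0.32), and the corepressor gene Ncor1 had a log2 fold change of -0.26. Of the 15 genes, 2 lay above WT without overlap and 0 below, against 5.35% and 7.47% of all tested genes. Of 5 genes with regulatory elements bound by the factors, 2 were negative, with a median of 0.18. Kit had a log2 fold change of -0.19 and Hhex, a homeobox gene, of 0.18. Itga2b (CD41), a surface integrin of megakaryocytes and of some HSCs, had -0.72 without overlap (adjusted p = 0.688 from limma). Of these 5 genes, 1 lay below WT without overlap and 0 above, against 7.47% and 5.35% of all tested genes.

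**Figure D5:**
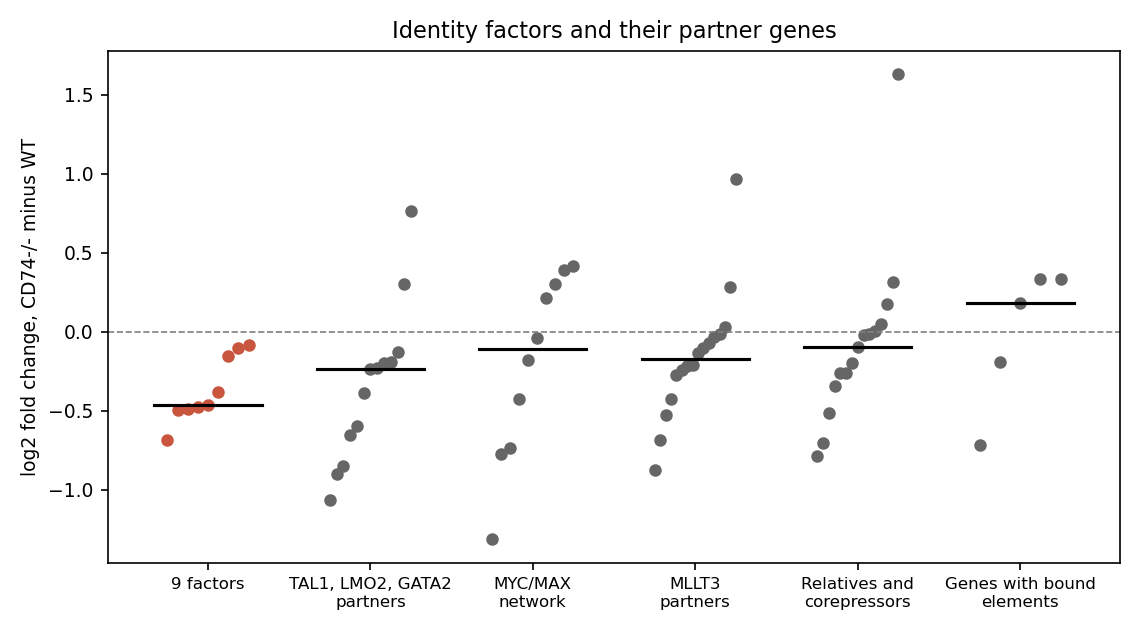
Log2 fold change (y axis, CD74-/- minus WT) of the 9 factors (red) and of the tested genes of 5 partner lists (grey), 1 point per gene with the median of each list as a line. The medians are -0.46 for the factors and -0.24, -0.11, -0.17, -0.10 and 0.18 for the lists in the order shown, and no point passed the test over all genes.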

How the data were processed

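RNA of CD34-/LSK cells from 3 WT and 3 CD74-/- mice was examined in 6 libraries. The authors trimmed reads with cutadapt, discarded reads under 30 bp, mapped with STAR (2.4.2a in the processing notes) to GRCm38 with Ensembl release 92, counted with htseq-count and divided by DESeq2 size factors. The deposited signal is this normalized count, with 2 decimals. Dividing by the smallest step of each library gave whole reads, within 0.006 normalized counts, for 100.0% of the 101059 values above 0. The call thresholds of the authors were not used.

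Genotypes were compared with limma 3.58.1 (trend, R 4.3.3) on log2(normalized count + 1) over 14892 genes with a mean of at least 10, with Benjamini-Hochberg adjustment and a threshold of 0.05. Alternatives were pseudocounts of 0.5 and 5, no filter, a minimum mean of 50, blocking on the replicate number, leaving out each library in turn, library totals or TMM factors as the scale, and edgeR 4.0.16, DESeq2 1.42.0 with the study's settings and limma-voom on recovered reads. The DESeq2 version of the study was an earlier one. Scripts were tested on simulated data. Exact permutation tests used the log2 values. GENCODE vM21 gave coordinates, exon lengths and shared words of 50 bases, which were at most 1.48% in any of the 9 genes (Etv6). Python 3.11.15 was used for the rest.

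The level of a gene per length (RPKM) used merged exons. The 9 genes and the partner and marker lists were chosen with earlier results of these data known, and a few genes of these lists are not reported here and were left out of their counts and sums. Named beside the 9 were Cd74 and, of each partner list, each called gene, the 2 genes with the highest mean and up to 2 genes without overlap by size of change. Cd34, Cd48, Flt3, Il7r, Esam, Hoxb5, Ldb1, Lyl1, Fli1, Runx1, Tcf4 and Tcf12 were named after their values were seen. The log2 fold changes of the other stem cell markers were likewise added after their values were seen. So were the single markers under the other observations. Marker lists, besides those given in the report, held 8 B cell, 8 erythroid, 7 megakaryocyte and platelet, 6 monocyte, 5 mast cell and basophil and 5 endothelial genes.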

Additional observations from a re-analysis of the deposited data

How the results depend on the processing

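The count of called factors was 0 of 9, and that of called partner genes 0, under each alternative. All 9 factors were negative except Lmo2 and Erg with a CD74-/- library left out: over the fits without 1 library Lmo2 ran from -0.256 to 0.067 and Erg from -0.42 to 0.062, with Erg at 0.056 without CD74-/- replicate 2. The median of the factors was lowest without CD74-/- replicate 3 (-0.745) and highest without CD74-/- replicate 1 (-0.157). Scaled to library totals it was -0.528, where the median of all genes was -0.095, and -0.445 with TMM factors. Over all genes limma called 6 higher and 7 lower. DESeq2 called 49 and 99, and limma-voom 3 and 3. Leaving out 1 library gave 5 to 19 higher genes, the highest without CD74-/- replicate 3, and 1 to 27 lower genes: 1, 2 and 4 without WT replicates 1, 2 and 3, 27 without CD74-/- replicate 1 (10 when replicate 3 was left out instead). The share of higher calls was 46.2%, and 33.1% with DESeq2. With the replicate number as a block, 6 were higher and 21 lower (22.2% higher), and the lowest adjusted p of a factor was 0.561. The main fit did not pair the libraries by number. Same-numbered libraries correlated at 0.116, 0.072 and 0.019 in their deviations from the group means. The values 0.116 and 0.072 were the highest of all pairs of a WT and a CD74-/- library. Libraries of different numbers correlated at -0.111 to 0.053, and WT replicate 3 correlated best with CD74-/- replicate 2 (0.053). Whether same-numbered libraries belong together was not tested. With 3 libraries per genotype the limma intervals were wide. They begin at 0.691, 0.589 and 0.676 of the WT level for Lmo2, Erg and Etv6 and at 0.356 (Mycn) to 0.496 (Gata2) for the other factors. The cause of these shifts was not tested.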

Other observations

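Markers of other blood cells were also measured in these libraries. All 10 neutrophil markers had a negative log2 fold change, with summed levels of 157123 to 973968 normalized counts in WT and 31360 to 144764 in CD74-/-, and limma called 0 of them. All 8 B cell markers were negative as well (2993 to 9369 against 1218 to 2973), and so were all 8 erythroid markers (11691 to 38658 against 1560.4 to 4003), of which limma called 2, the globin genes Hba-a2 and Hbb-bs. Of 6 monocyte markers 5 were negative (29083 to 50052 against 9424 to 38855), and of 7 megakaryocyte and platelet markers 5 (2328 to 5030.0 against 2489 to 3342). Of the mast cell and basophil list 3 of 4 tested genes were negative (348 to 1467 against 744 to 2151), and Fcer1a and Gzmb were at 0 in all CD74-/- libraries. Fcer1a was also at 0 in WT replicate 3, and Gzmb, with 7 reads in WT replicate 1, was at 0 in the other WT libraries. Of the endothelial list 3 of 4 tested genes were negative (1817 to 3267 against 1930.1 to 2662). DESeq2 on recovered reads called more of these markers lower: Ly6g (adjusted p = 7.85e-06), Mmp9, Ebf1, Pax5, Hba-a1, Hba-a2, Hbb-bs, Hbb-bt, Car1 and Itgb3. Of the genes in this list, edgeR on the same reads called only Hba-a2 (adjusted p = 0.0374). The others had adjusted p values from edgeR of 0.0953 (Hbb-bs) to 0.572 (Itgb3). Over all tested genes, limma called 0.0873% and DESeq2 0.756%, and 52.3% had a negative sign. Cd79b (log2 fold change -0.14) made up most of the B cell sum in each CD74-/- library, and Lyz2 (-0.90) most of the monocyte sum in all 6 libraries. CD74-/- replicate 3, the CD74-/- library with the most RNA of the 9 factors, held the lowest B cell and monocyte sums of the 6 libraries, and its neutrophil and erythroid sums lay between those of the other CD74-/- libraries. The part of these cells in the levels of the factors was not tested.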
